A study of Homo sapiens with 24 samples.

Results

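The 44 mitosis genes described here encode proteins that take cells from G2 through mitosis and cytokinesis. They were taken by name from a list of G2 and mitosis genes and found in the exon count table through their Ensembl identifiers, as 44 of 61533 genes in the table, and each of the 44 had enough counts to be tested. The assay was 4sU-seq, which reads RNA made during a labelling window, in the human bone tumour line U2OS. The cells took up 4-thiouridine (4sU, 200 µM) for 1 h, and the labelled RNA was purified and sequenced. All cells carried a stably integrated glucocorticoid receptor (GR) fused to HaloTag, driven by a CMV promoter. There were 3 lines: wild-type GR (wt), the K492A mutant (SoF) and the R470A mutant (Ctrl). By the study, K492A has reduced RNA affinity and a smaller loss of DNA affinity. R470A, its control, has reduced DNA affinity and keeps the RNA affinity of wild-type GR. Cells were kept in charcoal-stripped serum and were given the GR agonist dexamethasone at 100 nM for 1, 2 or 3 h, or its vehicle, 0.01% ethanol (0 h), with 2 libraries for each of the 12 groups and 24 in all. Each line was 1 sorted pool of cells, so the construct and the pool cannot be told apart. How long the ethanol dishes were held is not stated, so time in fresh medium and dexamethasone cannot be told apart either. Nothing in the labels says that the 2 libraries of a group came from separate cultures, and the p-values then measure only the spread between these libraries. By the study's methods, biotinylation and pulldown were carried out on replicate pairs, and where the libraries of a group shared a pulldown, pulldown and group cannot be told apart.

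Entry into mitosis is driven by cyclin-dependent kinase 1 bound to B-type cyclins, with the Polo and Aurora kinases. Kinetochores then attach chromosomes to spindle microtubules, the spindle checkpoint holds the cell until every chromosome is attached, and the anaphase-promoting complex starts chromosome separation by marking cyclin B and securin for destruction. Transcription of these genes peaks in G2 and mitosis. MuvB complexes with B-MYB or FOXM1 bind the cell cycle homology region of their promoters, whose core is TTTGAA or TTCGAA, and NF-Y binds CCAAT boxes nearby.

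The promoter sequence before the start of 7 members is shown. These include PLK1 and CENPE, with the highest and lowest log2 fold change at 3 h, and 1 marker that was not called. ECT2 and CDC25C fell further than ASPM but are not shown. The sequences are the 200 bases before the RefSeq start on build GRCh38.p14, written 5′ to 3′ along the gene's strand, and capitals mark the homology region core and the CCAAT box, read on either strand, so that TTCAAA is the reversed form of the first and ATTGG that of the second.
PLK1 (chr16:23678689-23678888, plus strand): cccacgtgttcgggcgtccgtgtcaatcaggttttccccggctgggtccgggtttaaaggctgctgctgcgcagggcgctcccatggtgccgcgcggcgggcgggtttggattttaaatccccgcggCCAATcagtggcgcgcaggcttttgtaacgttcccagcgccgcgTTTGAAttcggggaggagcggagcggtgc
CDC20 (chr1:43358781-43358980, plus strand): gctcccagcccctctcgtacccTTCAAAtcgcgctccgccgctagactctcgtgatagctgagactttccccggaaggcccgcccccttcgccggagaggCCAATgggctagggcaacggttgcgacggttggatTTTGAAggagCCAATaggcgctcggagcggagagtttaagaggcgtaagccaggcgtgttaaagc
KIF20A (chr5:138178912-138179111, plus strand): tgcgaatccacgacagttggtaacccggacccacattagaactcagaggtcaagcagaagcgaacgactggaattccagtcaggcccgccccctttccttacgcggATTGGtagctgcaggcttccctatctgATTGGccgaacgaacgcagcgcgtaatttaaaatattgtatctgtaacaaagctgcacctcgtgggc
KIF23 (chr15:69414149-69414348, plus strand): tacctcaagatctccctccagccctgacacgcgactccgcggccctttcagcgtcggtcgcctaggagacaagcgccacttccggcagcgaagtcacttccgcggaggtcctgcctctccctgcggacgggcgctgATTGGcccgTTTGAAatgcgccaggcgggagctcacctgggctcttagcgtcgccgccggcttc
ASPM (chr1:197146670-197146869, minus strand): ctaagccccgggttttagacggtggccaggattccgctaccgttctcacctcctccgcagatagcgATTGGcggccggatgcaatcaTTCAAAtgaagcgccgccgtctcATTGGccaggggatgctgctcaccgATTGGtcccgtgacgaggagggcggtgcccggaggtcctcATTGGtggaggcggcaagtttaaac
CENPE (chr4:103198344-103198543, minus strand): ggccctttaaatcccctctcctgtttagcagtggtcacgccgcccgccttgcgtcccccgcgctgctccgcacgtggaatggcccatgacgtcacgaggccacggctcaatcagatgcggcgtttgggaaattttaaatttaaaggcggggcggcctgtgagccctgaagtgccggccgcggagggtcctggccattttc
CCNB1 (chr5:69166950-69167149, plus strand): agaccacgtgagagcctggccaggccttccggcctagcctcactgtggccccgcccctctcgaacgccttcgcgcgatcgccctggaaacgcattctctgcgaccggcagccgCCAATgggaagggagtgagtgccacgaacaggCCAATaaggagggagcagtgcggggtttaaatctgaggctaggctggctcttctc
Of these, PLK1, CDC20, KIF23 and ASPM held both elements, KIF20A and CCNB1 held CCAAT boxes alone, and CENPE held neither in these letters.

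Promoters from 250 bases before to 50 bases after the RefSeq start were given for 37 of the 44 members. TTTGAA stood in 26 of the 37 (70.3%), against 15.4% of 27305 promoters of all genes, and CCAAT in 29 of 37 (78.4%), against 35.7%. TTTGAA or TTCGAA together with CCAAT stood in 23 of 37 (62.2%), against 6.58%. A separate list of further G2 and mitosis genes held TTTGAA in 28 of 43 promoters (65.1%) and CCAAT in 29 of 43 (67.4%). S phase and replication genes, which are transcribed earlier in the cycle, held TTTGAA in 1 of 25 promoters and CCAAT in 15 of 25. Members that later rose and members that later fell both held TTTGAA, in 3 of 4 and 15 of 17 promoters. Members that were not called held it in 8 of 16. A match is a description of these letters and not a measured binding site.

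Libraries held 8106036 to 15820806 exon counts, and the 44 genes together took 0.397% to 0.682% of them. The 3 marker genes of the list were expressed in every library: CCNB1 had 1023 to 2889 counts, AURKA 521 to 1396 and PLK1 246 to 1293. CDC25C was the member with the fewest counts, from 55 to 210. The osteoblast-lineage genes COL1A1, SPARC, RUNX2 and ALPL were expressed, SP7, COL1A2 and IBSP were too low to test, and BGLAP and SPP1 were near 1 CPM (the count relative to the TMM-scaled library size). Markers of other cell types were at or below a mean of 4.22 CPM, with CD3E and PECAM1 too low to test.

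Replicate libraries differed in the level of the whole group of genes. When each gene was centred on its mean log2 CPM over the 24 libraries, the median of the 44 lay at 0.17 in replicate 1 and -0.22 in replicate 2 of wt at 2 h, with 43 of 44 members higher in replicate 1. In Ctrl the order was the opposite at 2 h, with -0.46 in replicate 1 and -0.10 in replicate 2, and only 1 of 44 members was higher in replicate 1. The Ctrl 2 h replicate 1 library was the lowest of all. In bulk libraries, fewer cells in G2 or mitosis and less new RNA of these genes per cell cannot be told apart.

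**Figure D1:**
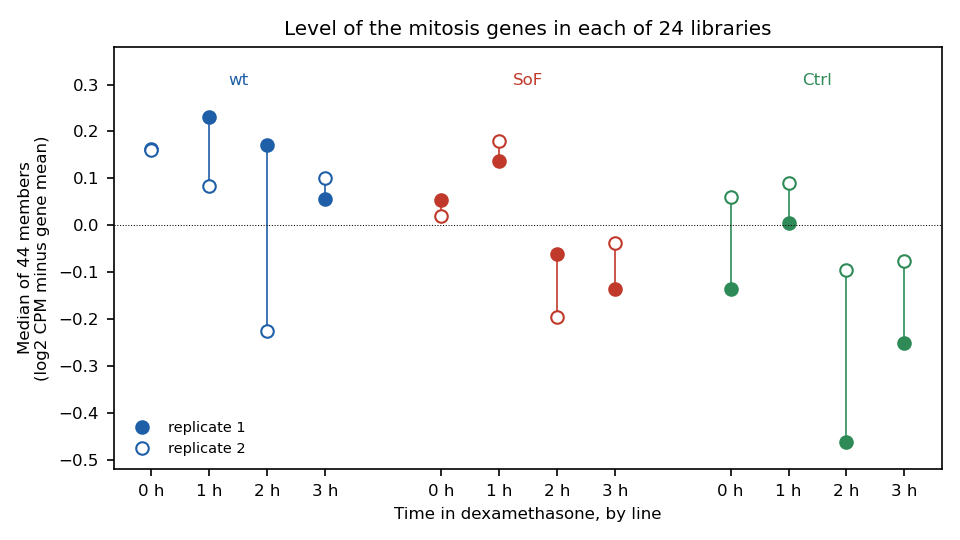
Median of the 44 mitosis genes in each library, as log2 CPM minus the gene's mean over all 24 libraries (vertical axis), by line and time in dexamethasone (horizontal axis). Filled circles are replicate 1, open circles replicate 2, and a line joins the libraries of a group. The libraries of wt at 2 h (0.17 and -0.22) and of Ctrl at 2 h (-0.46 and -0.10) stand furthest apart.

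Per kilobase of exon, the level of the members covered a wide range. UBE2C, the ubiquitin-conjugating enzyme of the anaphase-promoting complex, was highest at 77.8 ± 14.6 CPM per kb (SD, n = 24 libraries), followed by TOP2A, the DNA topoisomerase of mitotic chromosomes, at 67.6 ± 8.23 and TPX2, a spindle assembly factor, at 67.2 ± 7.61. These 3 differed by less than their spread over libraries. CDC25C, a phosphatase that activates cyclin-dependent kinase 1, was lowest at 3.30 ± 0.90, below CDCA3 at 6.58 ± 1.47.

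The comparison with 0 h asked how new RNA of these genes changed with time in dexamethasone. In the mean of the 3 lines, 1 h against 0 h gave no called member, 2 h gave 2 that rose and 19 that fell, and 3 h gave 5 that rose and 19 that fell. CDC20, PLK1, KIF20A, CDCA3 and BIRC5 rose by 3 h, while kinetochore, spindle motor and cytokinesis genes such as CENPE, KIF23, ECT2 and ASPM fell. Roles were assigned with earlier results of these data known, so the split by role is a description and was not tested. A call is an adjusted p under 0.05 in edgeR's quasi-likelihood test, adjusted by Benjamini-Hochberg over 23651 genes, and log2 fold changes are given ± SE. Of all genes tested, 1.28% were called at 1 h. At 2 h 28.8% were called (16.2% higher and 12.6% lower), and at 3 h 40.3% (20.9% higher and 19.3% lower). The median log2 fold change of the members was -0.17 at 2 h and -0.13 at 3 h, and that of all genes tested -0.03 and -0.04.

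At 1 h, edgeR and DESeq2 each called 0 members in the mean of the lines, and 8 members had an unadjusted p under 0.05 in edgeR. KIF20B, a kinesin of late cytokinesis, had the smallest of these p-values, with a log2 fold change of 0.40 ± 0.13 and an adjusted p of 0.14. Within lines edgeR called 0 members at 1 h, where 0.156% (wt), 0.165% (SoF) and 0.0465% (Ctrl) of all genes were called. An unadjusted p under 0.05 was reached by 5 members in wt and 4 in SoF, by 0 in Ctrl, and DESeq2 called 0 in each line.

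**Figure D2:**
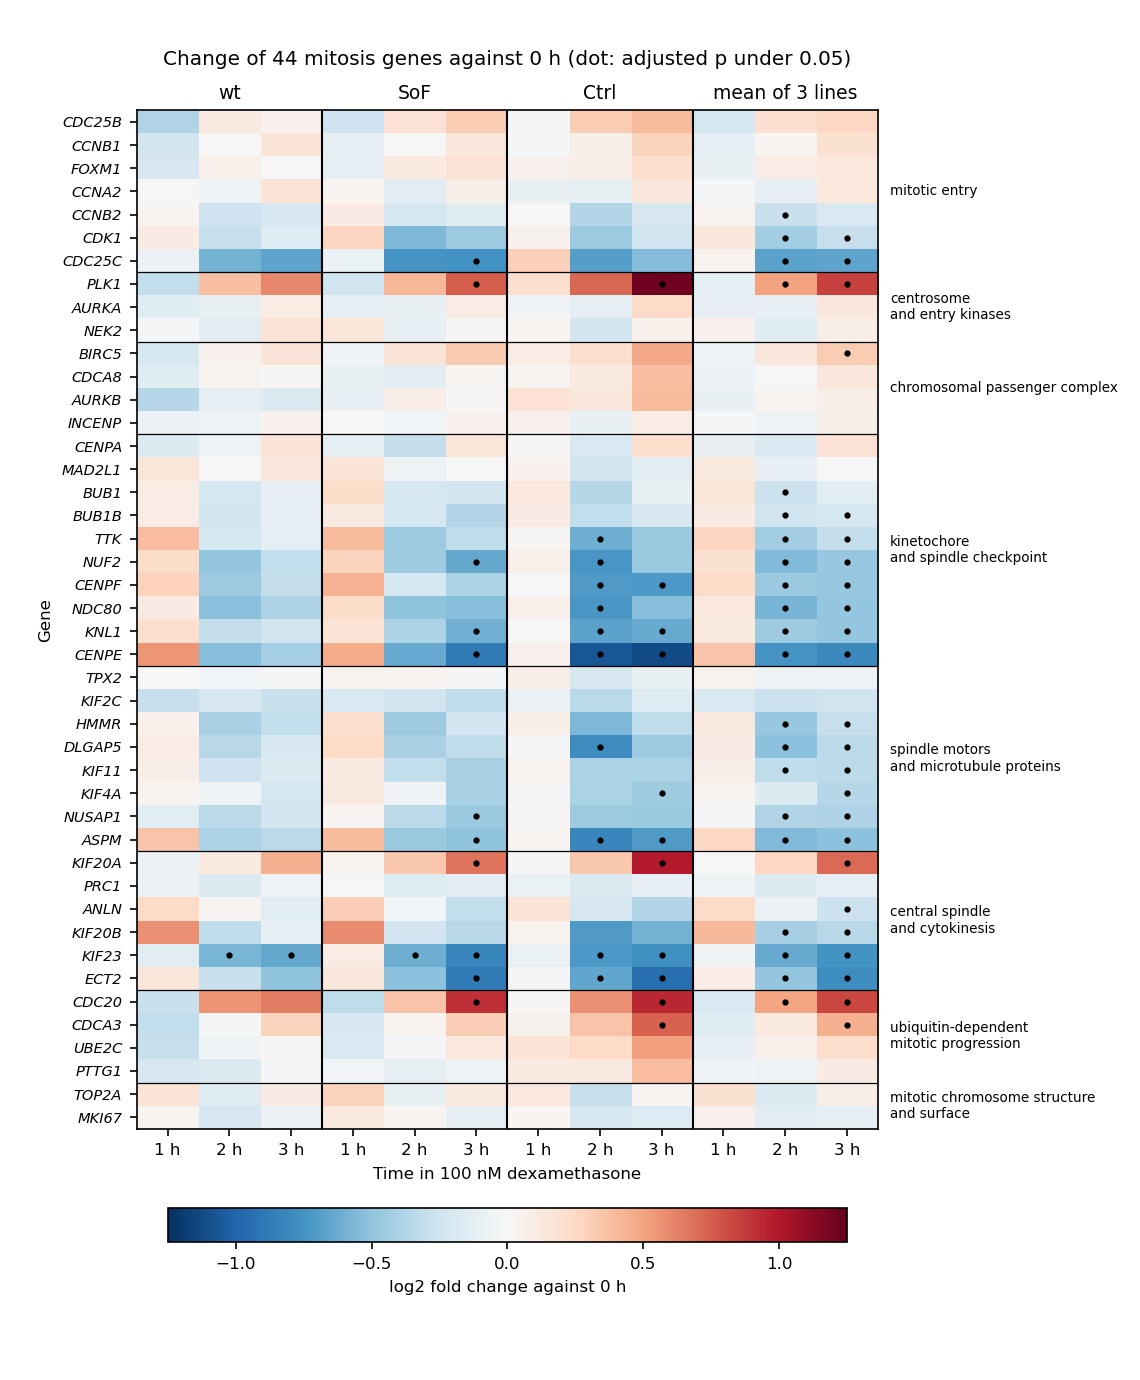
Log2 fold change against 0 h (colour scale) of the 44 mitosis genes (rows, grouped by role and ordered by the mean change at 3 h) at 1, 2 and 3 h in each line and in the mean of the 3 lines (columns). Dots mark an adjusted p under 0.05. No dot stands at 1 h, and at 3 h in the mean of the lines 5 members are called higher and 19 lower.

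The 0 h libraries decide how many members are called. The test of the mean of the lines takes them as independent. Same-numbered ones deviated together across the lines, however, with correlations of 0.39 to 0.57 over all genes tested. The SEs and adjusted p-values given for the mean of the lines against 0 h may therefore be too small. For the fits below that leave out 0 h libraries, the share of all genes called was not computed, so whether the shift is particular to the members was not tested. In all 3 lines, replicate 2 at 0 h had less PLK1, CDC20 and KIF20A and more CENPE, ASPM and KIF23 than replicate 1. With replicate 1 of 0 h left out in all lines (a choice made after seeing the data), 24 members were called at 2 h and 28 at 3 h. With replicate 2 left out instead, 9 were called at 2 h and 12 at 3 h, and 12 at 1 h. Of the original calls, 9 of 21 at 2 h and 11 of 24 at 3 h were then kept, and those of PLK1 and CDC20 at 2 h were lost. The direction of PLK1, CDC20, KIF20A, CDCA3, CENPE, ECT2, KIF23, CDC25C, ASPM and KNL1 at 3 h and their call in the mean of the lines were the same either way. The comparison of 3 h with 1 h, which uses no 0 h library, called 9 members higher and 20 lower, where 50.6% of all genes were called (25% higher and 25.6% lower).

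Of the 7 genes of mitotic entry, CDK1 and CDC25C fell at 3 h and no gene rose. The call of CDK1 was lost without replicate 2 of the 0 h libraries. CDC25C (chr5:138285269-138338355, minus strand) lay between 11.8 and 16.2 CPM in the 6 libraries at 0 h, with a median of 12.7, and between 7.82 and 9.57 at 3 h, with a median of 8.27. No library at 3 h reached the lowest at 0 h, and the log2 fold change was -0.65 ± 0.13 (adjusted p = 0.00040, edgeR). CDK1, the kinase itself, went from a median of 183 CPM (139 to 197) at 0 h to 147 (117 to 159) at 3 h, a log2 fold change of -0.29 ± 0.10. CCNB1, which encodes cyclin B1 and lies at chr5:69167135-69178245 on the plus strand, had a median of 142 CPM (119 to 167) at 0 h and 160 (130 to 202) at 3 h. Those ranges overlapped, and the log2 fold change of 0.19 ± 0.11 was not called (adjusted p = 0.15), although 3 h against 1 h was (0.32 ± 0.11, adjusted p = 0.017). CCNA2, CCNB2, FOXM1 and CDC25B were not called at 3 h either, with log2 fold changes from -0.19 to 0.25. CCNB2, the other B-type cyclin of the list, was called lower at 2 h (-0.28 ± 0.10).

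Among the centrosome and entry kinases, PLK1 rose and AURKA and NEK2 were not called. PLK1, the Polo kinase that acts from mitotic entry to cytokinesis, lies at chr16:23677656-23690367 on the plus strand. In wt its 2 libraries had 59.2 and 43.8 CPM at 0 h, 45.1 and 38 at 1 h, 72.6 and 61.4 at 2 h, and 65.7 and 90.3 at 3 h. The 0 h values in SoF were 43.8 and 29.7 CPM, and those at 3 h 58.5 and 66.3. Ctrl started at 30.1 and 29.0 CPM and reached 54.9 and 82.5 at 3 h. Both libraries at 3 h were above both at 0 h in each line. PLK1's log2 fold change in the mean of the lines was 0.50 ± 0.15 at 2 h and 0.86 ± 0.15 at 3 h (edgeR's quasi-likelihood test, adjusted p = 0.012 and 6.8e-05). AURKA, the Aurora kinase of centrosomes, lay between 72.7 and 93.0 CPM at 0 h and between 81.5 and 100.2 at 3 h, and its 0.14 ± 0.11 was not called (adjusted p = 0.31).

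In the chromosomal passenger complex, whose kinase is Aurora B, 1 of 4 genes rose at 3 h. BIRC5, the survivin subunit, had a median of 95.7 CPM (75.6 to 143) at 0 h and 124 (96.7 to 151) at 3 h. The ranges overlapped, and BIRC5 was called at 0.32 ± 0.11 (adjusted p = 0.026, edgeR), which did not hold without any 1 of 5 libraries, where it was 0.24 to 0.30. These were replicate 2 of wt and SoF at 0 h and of all 3 lines at 3 h. AURKB, INCENP and CDCA8 had log2 fold changes from 0.07 to 0.14.

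Of 10 kinetochore and spindle checkpoint genes, 7 fell at 3 h and 8 at 2 h, and none rose. Without replicate 2 of the 0 h libraries CENPE kept its call at both times, KNL1 at 3 h and NDC80 at 2 h. The calls of NUF2, CENPF, TTK and BUB1B at both times rest on that replicate. So do those of NDC80 at 3 h and of KNL1 and BUB1 at 2 h. The median log2 fold change of the 10 genes was then -0.23 at 2 h and -0.17 at 3 h, against -0.44 and -0.38 with all libraries. CENPE, a kinetochore motor at chr4:103105349-103198445 on the minus strand, had the lowest log2 fold change of the 44, within its SE of that of ECT2. Its wt libraries had 79.8 and 127 CPM at 0 h, 150 and 154 at 1 h, 76.4 and 67.1 at 2 h, and 83.2 and 71.3 at 3 h. SoF had 98.4 and 160 CPM at 0 h and 65.4 and 74.7 at 3 h, and Ctrl 93.4 and 179 and then 53.5 and 71.8. In SoF and Ctrl the libraries at 3 h lay below those at 0 h, and in wt they overlapped. The log2 fold change of CENPE in the mean of the lines was -0.74 ± 0.14 at 2 h and -0.81 ± 0.14 at 3 h (edgeR, adjusted p = 0.00050 and 0.00011), but -0.37 at 3 h without replicate 2 of the 0 h libraries, a change of over 1.5 times. KNL1, the scaffold that recruits checkpoint proteins, went from a median of 93.4 CPM to 67.2 (-0.48 ± 0.10), and had a log2 fold change of -0.24 without replicate 2 of the 0 h libraries. NDC80 and NUF2, partners in the complex that binds microtubules, fell by 0.48 and 0.47 on the log2 scale, and CENPF, a large outer kinetochore protein, by 0.47. TTK, the checkpoint kinase also known as MPS1, and BUB1B, the checkpoint protein BubR1, also fell, by 0.30 and 0.22, while BUB1 (-0.14 ± 0.09), MAD2L1 (-0.00) and CENPA (0.18 ± 0.11), the centromeric histone, were not called.

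Of 8 spindle motors and microtubule proteins, 6 fell at 3 h and none rose. Without replicate 2 of the 0 h libraries ASPM and NUSAP1 kept their calls and KIF4A, KIF11, DLGAP5 and HMMR did not. ASPM, a protein of spindle poles at chr1:197084121-197146694 on the minus strand, went from a median of 160 CPM (146 to 216) at 0 h to 118 (106 to 134) at 3 h, with no overlap between the libraries. ASPM's log2 fold change was -0.52 ± 0.10 (adjusted p = 0.00017 in edgeR), and -0.30 without replicate 2 of the 0 h libraries. NUSAP1, a microtubule bundler, and KIF4A, a chromosome-bound kinesin, did not overlap either, with log2 fold changes of -0.39 ± 0.09 and -0.36 ± 0.08. KIF11, the motor that separates spindle poles, DLGAP5 and HMMR fell by 0.33, 0.32 and 0.29. TPX2 (-0.04 ± 0.09) and KIF2C (-0.25 ± 0.10, adjusted p = 0.050, just above the threshold) were not called. Other protein-coding gene models on the same strand share 81.4% of the exon length of NUSAP1 and 57.6% of that of PRC1, and KIF4A and PTTG1 have near-identical copies elsewhere, so the values of these 4 genes are uncertain.

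In the central spindle and cytokinesis group, 4 of 6 genes fell and 1 rose. ECT2, KIF23 and KIF20A kept their calls without replicate 2 of the 0 h libraries, and KIF20B and ANLN did not. KIF23, a subunit of the centralspindlin complex at chr15:69414246-69448427 on the plus strand, was the member called at 2 h and 3 h in each of the 3 lines. Its wt libraries had 417 and 449 CPM at 0 h, 397 and 393 at 1 h, 334 and 247 at 2 h, and 283 and 272 at 3 h. SoF went from 364 and 418 CPM at 0 h to 211 and 232 at 3 h, and Ctrl from 319.5 and 453 to 221 and 234. Each library at 3 h was below each at 0 h over the 3 lines, and the log2 fold change in the mean of the lines was -0.74 ± 0.10 (edgeR, adjusted p = 2.1e-06). ECT2, the exchange factor that activates RhoA at the cleavage furrow and lies at chr3:172750682-172821474 on the plus strand, fell by 0.78 (SE 0.10). Its values were 104 and 101 CPM in wt at 0 h and 78.3 and 66.4 at 3 h, 142 and 191 and then 85.7 and 94.3 in SoF, and 89.0 and 127 and then 52.3 and 59.8 in Ctrl. Within each line the libraries at 3 h were below those at 0 h. KIF20A, the kinesin that brings Aurora B and PLK1 to the central spindle, was the exception in this group. Its range was 27.5 to 47.7 CPM at 0 h, with a median of 34.5, and 48.1 to 69.5 at 3 h, with a median of 54.9, so that all 6 libraries at 3 h were above all 6 at 0 h. KIF20A's log2 fold change was 0.71 ± 0.13 (adjusted p = 0.00022, edgeR). KIF20A (chr5:138178719-138187723, plus strand) and CDC25C lie 97.5 kb apart on chromosome 5 and were called in opposite directions.

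The genes of ubiquitin-dependent mitotic progression all had log2 fold changes above 0 at 3 h, and 2 of 4 rose. Without replicate 2 of the 0 h libraries 1 of the 4 lay below 0, and their median was 0.21, against 0.33 with all libraries. CDC20, the activator of the anaphase-promoting complex at chr1:43358981-43363203 on the plus strand, had 128 and 88.3 CPM in wt at 0 h and 148 and 189 at 3 h. SoF had 90.4 and 58.7 CPM and then 129 and 152, and Ctrl 77.8 and 53.4 and then 105 and 148. In each line both libraries at 3 h were above both at 0 h. The mean log2 fold change of CDC20 was 0.49 ± 0.13 at 2 h and 0.83 ± 0.13 at 3 h (edgeR, adjusted p = 0.0078 and 3.5e-05), and 1.03 ± 0.13 for 3 h against 1 h, the largest rise among the members. CDCA3, a trigger of mitotic entry through WEE1 destruction, rose by 0.44 ± 0.11, from a median of 29.3 CPM to 40.0. UBE2C (0.22 ± 0.13) and PTTG1, which encodes securin (0.10 ± 0.13), were not called. The genes of mitotic chromosomes, TOP2A (0.08 ± 0.08) and MKI67 (-0.12 ± 0.08), were not called, and MKI67 was the most abundant member by CPM, at 613 to 676 CPM at 3 h.

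**Figure D3:**
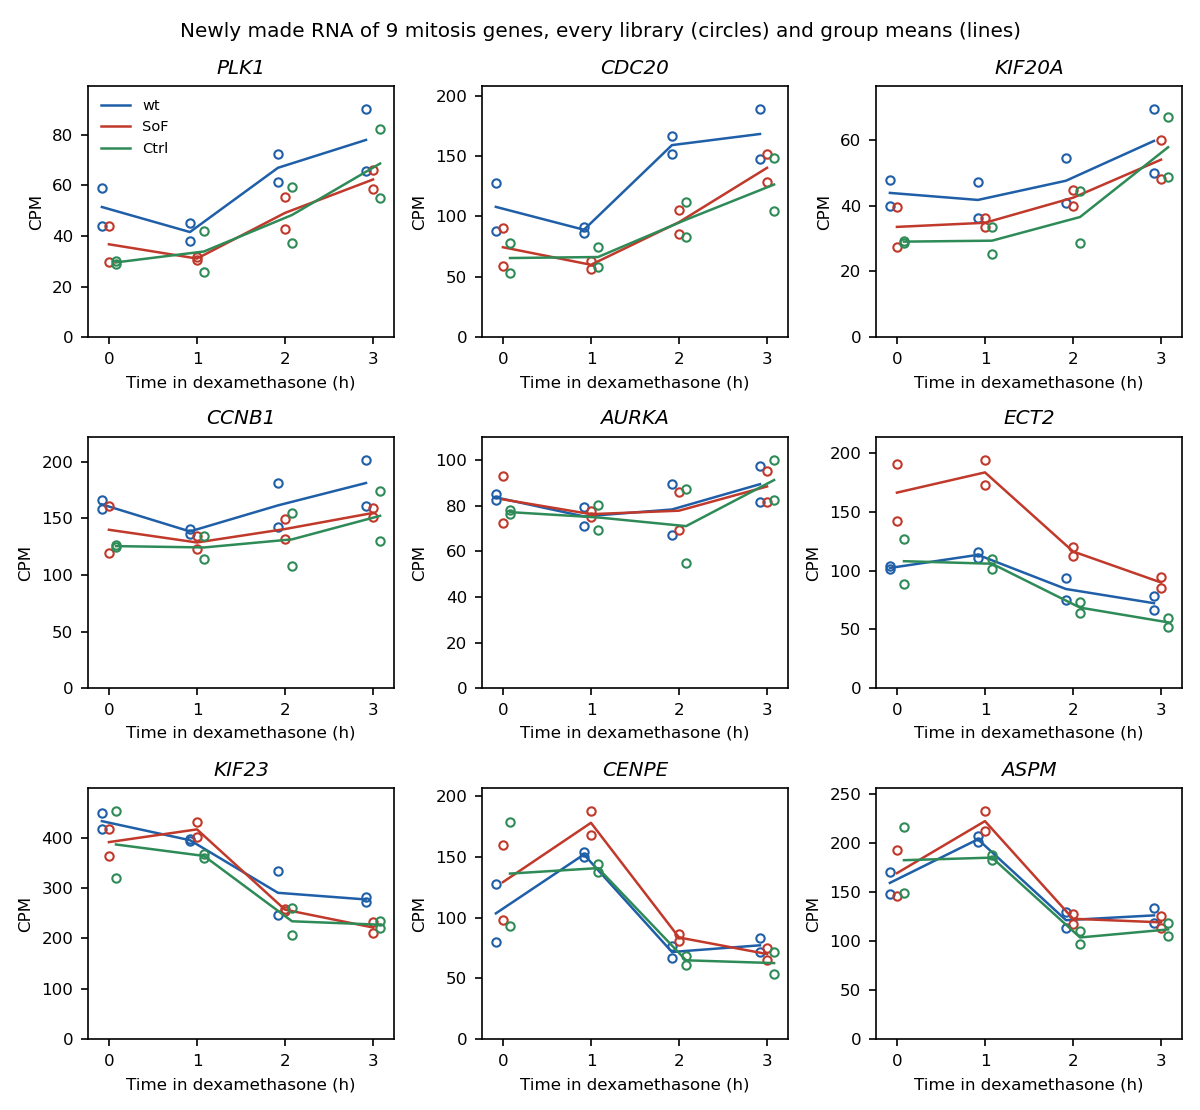
CPM (vertical axes, from 0) against time in dexamethasone (horizontal axes, h) for 9 mitosis genes. Circles are single libraries, lines join group means of 2 libraries, and colours give the line (wt blue, SoF red, Ctrl green). PLK1, CDC20 and KIF20A end higher at 3 h than at 0 h, ECT2, KIF23, CENPE and ASPM end lower, and CCNB1 and AURKA were not called.

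Single lines gave fewer calls than their mean. At 2 h wt had 1 member called and SoF 1, KIF23 in both, and Ctrl 10, all lower, where 4.6%, 5.68% and 7.95% of all genes were called (1.22%, 1.48% and 2.38% lower). At 3 h wt had 1 (KIF23, lower), SoF 11 (3 higher and 8 lower) and Ctrl 11 (4 higher and 7 lower), beside 10.7% of all genes in wt (4.12% lower), 19.3% in SoF (11.2% higher, 8.11% lower) and 14.2% in Ctrl (8.58% higher, 5.6% lower). PLK1 had a log2 fold change at 3 h of 0.60 ± 0.25 in wt (adjusted p = 0.13), 0.76 ± 0.25 in SoF (0.038) and 1.21 ± 0.26 in Ctrl (0.0029). CENPE had -0.42 ± 0.25 in wt (adjusted p = 0.31, edgeR), -0.88 ± 0.25 in SoF (0.015) and -1.12 ± 0.25 in Ctrl (0.0045). These within-line counts rest on single libraries. For Ctrl at 2 h the count was 0 without replicate 2 of 0 h, 1 without replicate 1 of 2 h and 4 without replicate 2 of 2 h. For Ctrl at 3 h it was 18 and 2 without replicate 1 or 2 of 0 h, and 6 and 4 without replicate 1 or 2 of 3 h. For SoF at 3 h it was 2 without replicate 2 of 0 h, and 3 and 4 without replicate 1 or 2 of 3 h.

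Whether the 3 h response differed between lines was tested directly, as an interaction. No member was called for SoF against wt, Ctrl against wt or SoF against Ctrl, where 0%, 0% and 0.0127% of all genes were called, and none had an unadjusted p under 0.05 in edgeR. DESeq2 also called 0 members in each. The furthest difference between Ctrl and wt was that of CENPE (-0.70 ± 0.35, adjusted p = 0.98), followed in size by PLK1 (0.62 ± 0.35). With SEs of this size, a difference of the observed size was not detectable, and the data do not show that the lines respond alike.

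The direction of change ran with gene architecture. Members that rose had a median span from start to end of 9.0 kb and a median exon GC content of 51.9%, and members that fell had 61.4 kb and 39.4%. Across the 44 genes, the mean log2 fold change at 3 h had a Pearson r of 0.68 and a Spearman rho of 0.71 with exon GC content, and of -0.77 and -0.81 with log2 span. The genes share the same 24 libraries, so these are descriptions across genes. Over 14693 protein-coding genes the same values were 0.32 and 0.39 for GC content, and -0.15 and -0.21 for span. At 1 h the relation with GC content among members had the opposite sign (r = -0.82), and at 2 h the same sign as at 3 h (0.75). Over the protein-coding genes the sign changed in the same way, with r = -0.43 at 1 h and 0.41 at 2 h.

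**Figure D4:**
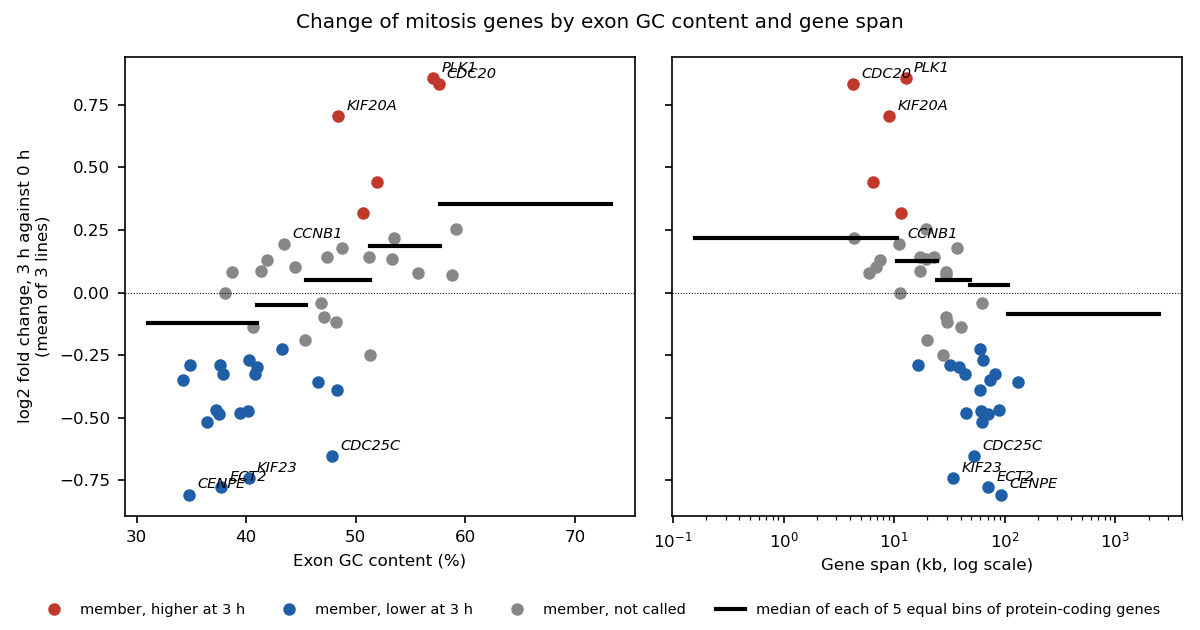
Mean log2 fold change of the 3 lines at 3 h (vertical axis) against exon GC content in percent (left) and gene span in kb on a log axis (right). Circles are the 44 mitosis genes, coloured by call, and black bars are the medians of 5 equal bins of protein-coding genes over the range each bin covers. Members that rose lie at a median of 51.9% GC and 9.0 kb, and members that fell at 39.4% and 61.4 kb.

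Protein-coding genes were split into 5 equal bins. The bin with the lowest GC content, up to 41.0%, had a median log2 fold change of -0.12, and 17 members lay in it with a median of -0.35, 14 of them called lower. The bin of spans from 48.9 to 107 kb held 13 members with a median of -0.47 against 0.03 for its protein-coding genes. In the bin of shortest spans, up to 10.7 kb, 7 members had a median of 0.22 against 0.22, and 3 of them were called higher. The next bin, up to 24.3 kb, held 11 members with a median of 0.14 against 0.13, 2 called higher and 1 lower. When a smooth trend of each library with GC content and span was removed (a choice made after seeing the data), 23 members were called at 3 h. Of the 24 original calls, 20 were among them. With this correction 40.6% of all genes were called (19.3% higher and 21.4% lower). PLK1 then had a log2 fold change of 0.59 ± 0.11, CDC20 0.65 ± 0.09, KIF20A 0.70 ± 0.12, CENPE -0.60 ± 0.09, ECT2 -0.66 ± 0.08 and KIF23 -0.68 ± 0.08, and each was called in edgeR. What part of the change these features or the library preparation account for was not tested.

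The lines were also compared over all times, 8 libraries each, with no time term in the model, as the study's methods describe for each mutant against wt. The comparison asks which members differ between cells carrying different receptors, and 21122 genes were tested. In Ctrl against wt 6 members were lower (BIRC5, NEK2, MAD2L1, CDCA8, CENPA and TPX2), where 4.77% of all genes were called (2.66% lower), and 41 of 44 members had a difference below 0. BIRC5 ran from 78.4 to 126 CPM in Ctrl, with a median of 87.7, and from 99.3 to 153 in wt, with a median of 126. Its ranges overlapped, and its log2 difference was -0.45 ± 0.11 (adjusted p = 0.017, edgeR). TPX2 ran from 160 to 255 CPM in Ctrl and from 238 to 272 in wt, with a log2 difference of -0.26 ± 0.07. NEK2, a centrosome kinase, and MAD2L1, the checkpoint protein MAD2, had log2 differences of -0.36 ± 0.09 and -0.33 ± 0.09. These calls depend on both replicates, with 0 members called from the replicate 2 libraries alone and 1 from the replicate 1 libraries alone. A model with a time term called 20, and the share of all genes called by that model was not computed. The median log2 difference of the members was -0.19, against -0.01 for all genes. It was -0.36 in the replicate 1 libraries alone, with 44 of 44 members below 0, and -0.06 in the replicate 2 libraries alone, with 27 of 44 below 0.

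In SoF against wt 4 members were lower, where 8.02% of all genes were called (3.45% lower). They were FOXM1, the transcription factor that drives G2 genes (-0.35 ± 0.09), CDC25B, a phosphatase of entry (-0.43 ± 0.12), CENPA (-0.37 ± 0.11) and PRC1, a microtubule bundler of the central spindle (-0.23 ± 0.07). FOXM1 ran from 118 to 161 CPM in SoF, with a median of 145, and from 135 to 218 in wt, with a median of 185, and the ranges overlapped. Of the exon length of FOXM1, 15.9% is shared with ITFG2 on the opposite strand. From the replicate 1 or the replicate 2 libraries alone 0 members were called.

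ECT2 was the member called between SoF and Ctrl, where 3.61% of all genes were called (2.16% higher). It ran from 85.7 to 195 CPM in SoF, with a median of 131, from 52.3 to 127 in Ctrl, with a median of 81.0, and from 66.4 to 116 in wt, with a median of 97.3. Its log2 difference was 0.72 ± 0.19 from Ctrl (adjusted p = 0.034, edgeR) and 0.59 ± 0.19 from wt (adjusted p = 0.060, not called). From the replicate 1 or the replicate 2 libraries alone ECT2 was not called against Ctrl (0.70 and 0.73). NEK2 (0.30 ± 0.09) and MAD2L1 (0.29 ± 0.09), next by p-value between SoF and Ctrl, were not called. Of the 5 tested genes within 1 Mb of ECT2 on chromosome 3, 5 were higher in SoF than in wt and in Ctrl, with 3 called against wt and 3 against Ctrl, and a median log2 difference of 0.59 and 0.65.

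**Figure D5:**
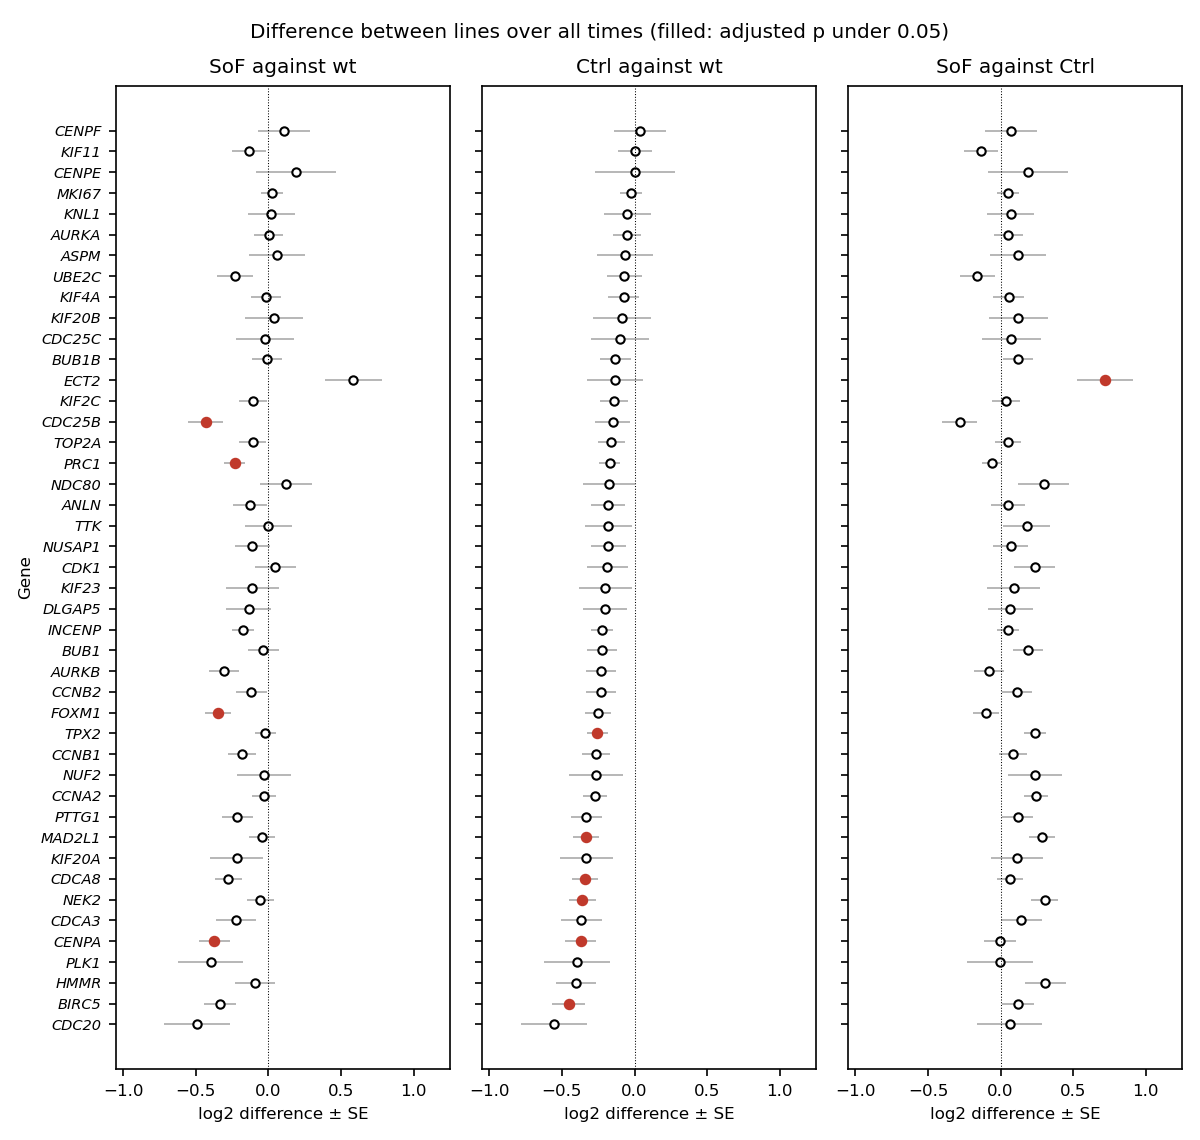
Log2 difference between lines over all times (horizontal axes, ± SE) for each of the 44 mitosis genes (rows, ordered by Ctrl against wt). Filled red circles have an adjusted p under 0.05 and open circles do not. In Ctrl against wt 41 of 44 genes lie below 0 (27 of 44 in the replicate 2 libraries alone) and 6 are called, in SoF against wt 4 are called, and in SoF against Ctrl ECT2 is called at 0.72.

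Other genes of the cell cycle were taken from lists set beside the members. Of 50 further G2 and mitosis genes, 9 rose and 17 fell at 3 h in the mean of the lines, where 20.9% of all genes tested rose and 19.3% fell. PSRC1, a spindle protein, rose by 0.96 ± 0.13, while KIF14 (-0.62 ± 0.10), the citron kinase gene CIT (-0.61 ± 0.08) and ESCO2, a cohesin acetyltransferase (-0.55 ± 0.09), fell. Of 30 S phase and replication genes, 4 rose and 4 fell, a smaller share in each direction than over all genes, with a median of -0.07. Cyclin E genes CCNE2 (0.61 ± 0.13) and CCNE1 (0.51 ± 0.11) rose, and E2F8 (-0.48 ± 0.10) and RFC4, a clamp loader subunit (-0.47 ± 0.08), fell. Of 22 cell cycle brakes and upstream regulators, 8 rose and 6 fell. WEE1, the kinase that holds cyclin-dependent kinase 1 inactive, fell by 1.08 ± 0.11, the antiproliferative gene BTG2 by 1.16 ± 0.13 and the stress gene GADD45A by 0.76 ± 0.09, and FZR1, the other activator of the anaphase-promoting complex, rose by 0.89 ± 0.11. Without replicate 2 of the 0 h libraries KIF14 was at -0.38 and CCNE1 at 0.29, and both were still called.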

How the data were processed

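Newly made RNA was profiled in 24 libraries. The authors trimmed reads with Trim Galore 0.6.6, aligned them to hg38 with STAR 2.7.3a, removed duplicates by molecular identifier with UMI-tools 1.1.2 and counted over exons of GENCODE release 39 with featureCounts. The deposited table holds these raw counts per gene as whole numbers, and strand use is stated only by its title. Symbols came from GENCODE release 44 (61369 of 61533 genes matched). The members, their roles and the other gene lists were chosen with earlier results of these data known.

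Genes were tested with edgeR 4.0.16 (R 4.3.3, limma 3.58.1): TMM scaling, filterByExpr (minimum count 10, total 15), a quasi-likelihood F test per gene, with p-values adjusted by Benjamini-Hochberg across all of them. One fit held 12 groups of 2 libraries (biological coefficient of variation 14.2%) and tested times within lines, their mean over lines and the interactions, and one fit held the line alone (24.0%). The SE of a log2 fold change is its size over the root of the F statistic. Log2 CPM used a prior count of 2. The table's other genes entered only through adjustment and background shares.

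Named members were CCNB1, PLK1 and AURKA, the 8 with the smallest p-values at 3 h in the mean of the lines, the 3 with the smallest in each line comparison, those called in at least 2 lines at 3 h and those called against the majority. For each other list the 4 genes with the smallest p-values were named, and further members were named after their values were seen. Replicates differed by more than counting error in every group (chi-square per gene 3.87 to 13.0). DESeq2 1.42.0, other scalings, no filter, a replicate block, single lines, a minimum fold and left-out libraries were the alternatives. The tests were also run on simulated counts drawn independently for each library. Those counts hold no deviation shared between 0 h libraries, so the check does not cover it. Promoters came from RefSeq on GRCh38.p14. Only the table of exon counts was used.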

Additional observations from a re-analysis of the deposited data

Results flagged for a closer look

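The replicate 2 library of wt at 2 h stood apart from the other 7 wt libraries, with a median level of the 44 mitosis genes of -0.22 on the centred log2 scale, where the gap to the next library took 0.615 of the range of the 8. Of 24 sets of 8 libraries examined, this was the 1 that passed. Chance passes about 1 in 20, so 1 pass among 24 is about what chance gives. The 8 libraries of a line also span all times in dexamethasone, so they are not replicates of each other.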

How the results depend on the processing

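Counts of called members are given for each alternative in which they moved by over 1.5 times. The share of all genes called was not computed for the time term or for the fits with left-out libraries. With DESeq2 they were 4 for SoF at 2 h, 3 for wt at 3 h, 8 for SoF against wt and 3 for SoF against Ctrl. RLE size factors gave 2 for SoF at 2 h. Library totals gave 3 for SoF at 2 h, 2 for wt at 3 h, 2 for Ctrl against wt and 3 for SoF against Ctrl. With no filter they were 3 for wt at 2 h, 3 for SoF at 2 h, 3 for wt at 3 h, 1 for the mean at 1 h, 1 for SoF against wt and 2 for Ctrl against wt. Single-line fits gave 0 for wt and 2 for SoF at 2 h. Requiring a log2 fold change of 0.5 left 8 for the mean at 2 h, 8 at 3 h, 16 for 3 h against 1 h, and 0 for SoF against wt and Ctrl against wt. A time term gave 10 for SoF against wt, 20 for Ctrl against wt and 8 for SoF against Ctrl, and the 0 h libraries alone gave 0, 0 and 0. The GC and span correction gave 2 for SoF and 5 for Ctrl at 2 h, beside 6.32% and 6.43% of all genes. For wt at 3 h and SoF against Ctrl it gave 5 and 3, beside 14.7% and 5.13%. Without replicate 1 of 0 h in all lines the counts were 9, 12 and 19 at 2 h in wt, SoF and Ctrl, and 4, 18 and 19 at 3 h. Without replicate 2 they were 2 for wt and 3 for SoF at 1 h, 0, 0 and 0 at 2 h, 2 for SoF and 5 for Ctrl at 3 h, and 12, 9 and 12 for the mean at 1, 2 and 3 h. The cause was not tested.

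Same-numbered libraries deviated together at 0 h across the lines (correlations of 0.39 to 0.57) but not between 0 h and 3 h within a line (-0.07 in wt, 0.04 in SoF and -0.18 in Ctrl). In SoF the 0 h libraries also deviated with those at 1 h (0.37) and 2 h (0.43), and in wt and Ctrl no such correlation passed 0.1. Over all times 21 of 66 group pairs had a correlation over 0.1 (median 0.04), so numbers were not taken as pairs. The replicate block gave 2 for SoF at 2 h and 2 for wt at 3 h, beside 7.04% and 12.6% of all genes. For the mean at 2 and 3 h it gave 22 and 25, beside 31.1% and 42.1%. No other count changed by over 1.5 times. The block is the same term at all times, so it cannot take up a deviation particular to 0 h.

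Leaving out 1 library at a time gave 0 to 3 for wt, 0 to 4 for SoF and 0 to 15 for Ctrl at 2 h, 0 to 2, 2 to 14 and 2 to 18 at 3 h, and 0 to 0 in each line at 1 h. For the mean of the lines it gave 0 to 4 at 1 h, 16 to 23 at 2 h, 17 to 27 at 3 h and 26 to 31 for 3 h against 1 h. For wt at 2 h the count was 0 without replicate 1 or 2 of 0 h or replicate 2 of 2 h, and 3 without replicate 1 of 2 h. For SoF at 2 h it was 4 without replicate 1 of 0 h and 0 without replicate 2 of 0 h or either 2 h library. For wt at 3 h it was 2 without replicate 1 of 0 h and 0 without replicate 2 of 0 h or either 3 h library. At 1 h the mean gave 1 without SoF 0 h replicate 2 and 4 without Ctrl 0 h replicate 2. The interactions stayed at 0. The line comparisons without replicate 1 or 2 gave 0 to 0 for SoF against wt, 0 to 1 for Ctrl against wt and 0 to 0 for SoF against Ctrl. CCNB1 and AURKA, not called, changed sign at 3 h when 1 library was left out: CCNB1 wt 3 h against 0 h ran from -0.0076 (without replicate 2 of 3 h) to 0.32, AURKA wt 3 h against 0 h from -0.032 (the same) to 0.23, CCNB1 SoF 3 h against 0 h from -0.053 (without replicate 2 of 0 h) to 0.39 and AURKA SoF 3 h against 0 h from -0.071 (the same) to 0.29, with -0.021 without replicate 2 of 3 h. With replicate 2 of 0 h left out in all lines they were -0.053 and -0.072 in SoF. With 2 libraries a group, changes of the size seen for AURKA were not detectable.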
